A study of Mus musculus with 44 samples.

Results

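The genes described are 9 growth cone and neurite outgrowth genes, Gap43, Basp1, Marcks, Marcksl1, Stmn1, Stmn2, Stmn3, Plppr3 and Plppr4, out of 55335 genes in the deposited count table. They were found by matching the Ensembl identifiers of the table to the gene symbols of the GENCODE annotation of the mouse genome build GRCm38, and all 9 passed the filter on low counts in every comparison. The set was chosen by the measured fold changes of Gap43 and Plppr3, which were lower in exercised than in sedentary mice of the simultaneous isolations, so that comparison is given here as a description, with no p-value for a member and nothing read from its calls.

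The libraries hold ribosome-bound mRNA from the hippocampus of male Emx1-NuTRAP mice, in which Cre recombinase from the Emx1 locus switches on labels on the ribosome and on the nuclear envelope. All groups carried the Cre and the reporter, and Emx1-Cre acts mostly in excitatory forebrain neurons but also in neural progenitor cells. Early-life exercise (ELE) mice had a running wheel in the cage from postnatal day 21 to 41, and sedentary mice had a standard cage over the same days. RNA was taken either from both hippocampi of a mouse together with its nuclei, as simultaneous INTACT and TRAP (SIT, 4 ELE and 4 sedentary mice), or from 1 hippocampus alone, as separate isolations (3 ELE and 3 sedentary mice for each of the left and right hemispheres).

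The 20 libraries held between 45895097 and 65767802 counts. Mitochondrial-genome genes took 0.0704% to 0.122% of the counts in the 12 separate libraries and 0.195% to 0.523% in the 4 SIT ELE libraries. In the SIT sedentary libraries they took 0.426% and 0.245% in mice 1 and 2, but 8.64% and 9.64% in mice 3 and 4. The study left out SIT sedentary mice 3 and 4 and SIT ELE mouse 2, and the SIT comparison follows it with 3 ELE and 2 sedentary libraries. Values for those 3 libraries are given beside it. The 6 excitatory neuron markers summed to a normalized read count (CPM, scaled to the library size) of 6340 to 7390 in the 8 SIT libraries and 7710 to 9790 in the 12 separate ones. The 6 astrocyte markers summed to 2210 to 4470 CPM in the SIT and 3400 to 5970 CPM in the separate libraries. The 6 oligodendrocyte markers summed to 2590 to 5020 CPM in the SIT and 2310 to 3830 CPM in the separate libraries. The 6 microglia markers summed to 2.34 to 9.05 CPM, and the 6 inhibitory neuron markers to 40.5 to 108 CPM, in every library but SIT sedentary mice 3 and 4, where they reached 179 to 188 CPM and 816 to 854 CPM.

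A growth cone is the motile tip of a growing axon or dendrite, where actin filaments push the membrane forward and microtubules follow. GAP-43, BASP1, MARCKS and MARCKSL1 sit on the inner face of the plasma membrane, bind acidic phospholipids and calmodulin, and are substrates of protein kinase C. Stathmins bind tubulin dimers and favour the shortening of microtubules until a kinase phosphorylates them. PLPPR3 and PLPPR4 are membrane proteins of neurons, related to lipid phosphate phosphatases, that take part in filopodia and axon growth and, for PLPPR4, in signalling by phospholipids at excitatory synapses. In the adult hippocampus Gap43 is known for axon growth and plasticity, and Stmn1 for its presence in young neurons of the dentate gyrus.

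In GRCm38, Gap43 (ENSMUSG00000047261.9) spans chr16:42248442-42340651 on the minus strand, and Plppr3 (ENSMUSG00000035835.14) spans chr10:79860475-79874634 on the minus strand. Stmn1 (ENSMUSG00000028832.11) spans chr4:134468320-134473843 on the plus strand, on the same chromosome as Marcksl1. Plppr4 (ENSMUSG00000044667.12) lies at chr3:117319139-117360876 on the minus strand, on the chromosome that also holds Stmn2. All are annotated as protein-coding, with exonic lengths from 1136 bases in Stmn3 to 7144 bases in Plppr4.

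Plppr3 and Plppr4 belong to the same family, and among the 3 ELE and 2 sedentary SIT libraries Plppr3 showed the largest difference of the members and Plppr4 the smallest, so their promoters are shown side by side. That comparison also chose the set, and any part of the promoter sequence in the difference was not tested. Of the 9 members, 5 had a RefSeq promoter (GRCm38.p6, 250 bases before to 50 after the start of the gene). Capitals mark CpG dinucleotides, which promoters active in many tissues often hold in numbers. Both sequences run 5′ to 3′ on the minus strand, Plppr3 from chr10:79874585-79874884 and Plppr4 from chr3:117360827-117361126.
Plppr3: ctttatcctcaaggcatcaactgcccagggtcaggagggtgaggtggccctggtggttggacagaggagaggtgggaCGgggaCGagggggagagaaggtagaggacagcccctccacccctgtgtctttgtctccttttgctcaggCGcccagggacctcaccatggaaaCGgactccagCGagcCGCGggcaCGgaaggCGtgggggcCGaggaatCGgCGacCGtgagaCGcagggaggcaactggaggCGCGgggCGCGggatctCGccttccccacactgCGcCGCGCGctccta
Plppr4: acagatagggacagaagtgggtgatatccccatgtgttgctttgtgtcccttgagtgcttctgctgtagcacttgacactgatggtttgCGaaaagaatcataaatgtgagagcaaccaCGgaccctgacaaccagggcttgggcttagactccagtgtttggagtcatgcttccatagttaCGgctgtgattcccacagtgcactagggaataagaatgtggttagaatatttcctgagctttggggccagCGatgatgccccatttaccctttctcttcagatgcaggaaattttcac
The Plppr3 window held 23 CpG dinucleotides and the Plppr4 window 4, against a median of 7 over 32851 promoters of that length. The other 3 windows held 38 in Basp1, 22 in Marcksl1 and 6 in Stmn3. The CRE motif TGACG was in 20.8% of all promoters on either strand and, among the 5, in Basp1 alone. The GC box GGGCGG was in 35.7% of all promoters, with 4 matches in Basp1 and 2 in Marcksl1 and no match in the other 3 windows.

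Levels of the members differed widely. Levels of different genes were compared per kilobase of exon (RPKM, from normalized CPM) in the 12 separate libraries, which did not take part in the choice of the genes. The length was that of all annotated exons of a gene merged, and the order of the genes depends on it. Before division by length, Stmn2 had a mean of 322 CPM and Stmn3 of 325 CPM. Basp1, whose protein gathers phospholipids under the membrane, was highest at 445.8 RPKM ± 33.2 (SD, n = 12), above 99.7% of the 15558 protein-coding genes that passed the filter. Stmn3 followed at 286 RPKM ± 23.3 (SD, n = 12), and Basp1 was above it in 12 of 12 libraries.

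Marcksl1 at 101 RPKM ± 18.1, Gap43 at 95.9 RPKM ± 13.2 and Stmn1 at 93.1 RPKM ± 14.1 (SD, n = 12 each) came next and did not differ beyond their spread. Marcksl1 exceeded Gap43 in 8 of 12 libraries, and Gap43 exceeded Stmn1 in 9 of 12. Stmn1 was above Plppr4, the next in order, in 11 of 12 libraries. Plppr4 and Stmn2 were indistinguishable at 57.8 RPKM ± 6.80 and 57.5 RPKM ± 3.10 (SD, n = 12 each), with Plppr4 the higher in 6 of 12. Marcks stood at 30.02 RPKM ± 4.03 (SD, n = 12). Plppr3, at 5.28 RPKM ± 0.727 (SD, n = 12), was lowest in 12 of 12 libraries and the only member near the median protein-coding gene, at 3.68 RPKM.

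**Figure D1:**
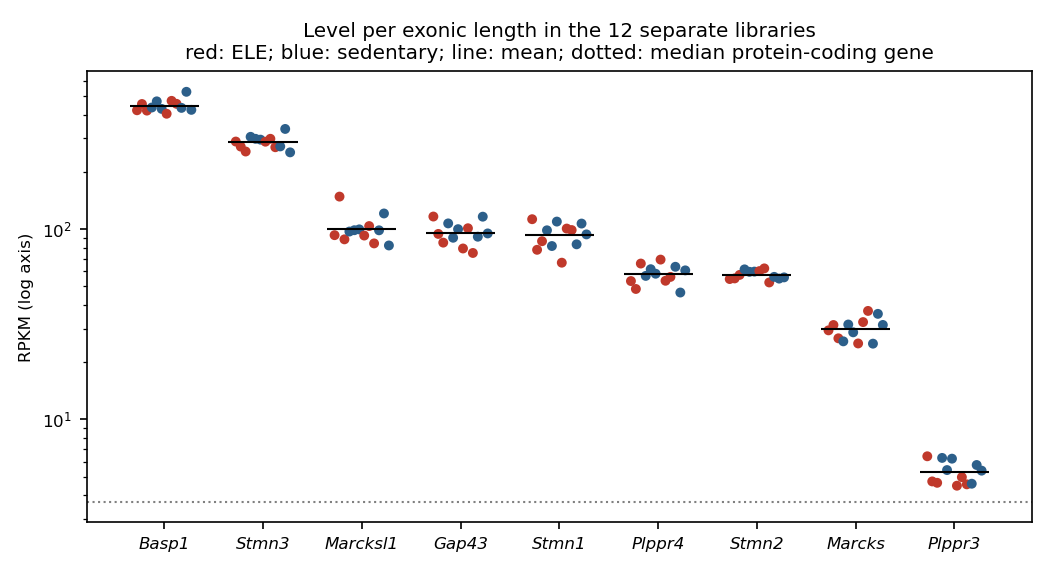
Level of each member per kilobase of exon in the 12 separate libraries (RPKM, log axis, red points ELE, blue points sedentary, black line the mean, dotted line the median protein-coding gene at 3.68 RPKM). Basp1 and Stmn3 stand above the other members, Plppr3 stands far below them, and ELE and sedentary points mix in each gene.

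The members also differed in how much they varied between mice of the separate isolations. The coefficient of variation of CPM over the 12 libraries was smallest in Stmn2, at 5.39%, and largest in Marcksl1, at 18%. The median over the members was 13.4%, against 17.5% over the 19935 genes that passed the filter in all 20 libraries. Most of the spread of Marcksl1 came from left ELE mouse 2, at 238 CPM, where the other 11 libraries lay between 132 and 194 CPM.

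In the 3 ELE and 2 sedentary SIT libraries compared, Gap43 was the membrane-bound protein kinase C substrate with the largest difference between ELE and sedentary mice. Gap43, whose protein is abundant in growth cones and presynaptic terminals, measured 169, 155 and 180.1 CPM in ELE mice 1, 3 and 4 against 250.1 and 212 CPM in sedentary mice 1 and 2. All 3 ELE values were below both sedentary values, and the log2 fold change was -0.46 (SE 0.108), a change of -27.25%. The left-out libraries measured 139 CPM in ELE mouse 2 and 178 and 219 CPM in sedentary mice 3 and 4, so that with all 8 libraries the groups overlapped, since ELE mouse 4 was above sedentary mouse 3. With all 8 the log2 fold change of Gap43 was -0.41 (SE 0.132), a smaller difference than the -0.44 of Marcks over the same libraries.

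Basp1 measured 1016, 964 and 929 CPM in the 3 ELE mice and 1068 and 1070 CPM in the 2 sedentary mice, which gave a log2 fold change of -0.14 (SE 0.0759). These groups stood apart by less than they did for Gap43, and ELE mouse 2, left out, was higher than any other SIT library at 1246 CPM, which gave -0.02 (SE 0.117) over all 8 libraries. Marcks measured 165, 140.1 and 140 CPM in ELE and 165 and 175 CPM in sedentary mice, which gave a log2 fold change of -0.20 (SE 0.106). Sedentary mice 3 and 4, left out, were far above them at 302 and 256 CPM, which gave -0.44 (SE 0.211) over all 8 libraries, and these are the libraries in which the microglia markers were high. The part of that signal in the Marcks value was not tested. Marcksl1 measured 162, 200.4 and 192 CPM in ELE and 223 and 217 CPM in sedentary mice (log2 fold change -0.25, SE 0.109). Its direction rested on the choice of libraries: ELE mouse 2 was at 339 CPM and sedentary mice 3 and 4 at 154 and 170.5 CPM, and over all 8 libraries the log2 fold change was 0.24 (SE 0.226).

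Of the stathmins, Stmn1 stood out. It measured 221, 177 and 189 CPM in the 3 ELE mice and 278 and 272 CPM in the 2 sedentary mice, which gave a log2 fold change of -0.49 (SE 0.107). The left-out libraries kept the groups apart, at 209 CPM in ELE mouse 2 and 252 and 267 CPM in sedentary mice 3 and 4. In sedentary mice 3 and 4 the microglia and inhibitory neuron markers were high, and the part of that signal in Stmn1 was not tested. Stmn2, a stathmin that palmitoylation anchors to membranes of growing neurites, ranged from 386 to 430.1 CPM in ELE and from 425 to 438 CPM in sedentary mice. Stmn3, its close relative, ranged from 370.4 to 434 CPM and from 421 to 443 CPM. The log2 fold changes of Stmn2 and Stmn3 were -0.10 (SE 0.0864) and -0.13 (SE 0.0937), and the groups overlapped for each.

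Plppr3 showed the widest difference of the members. It measured 17.9, 14.5 and 20.1 CPM in the ELE mice and 28.2 and 29.8 CPM in the sedentary mice, which gave a log2 fold change of -0.73 (SE 0.167), a change of -39.6%. ELE mouse 2 was lower still at 14 CPM, and sedentary mice 3 and 4 were higher still at 35.8 and 38.1 CPM, which gave -0.97 (SE 0.166) over all 8 libraries. The microglia and inhibitory neuron markers were high in sedentary mice 3 and 4, and the part of that signal in Plppr3 was not tested. Plppr4 measured 376, 403 and 484 CPM in ELE and 414 and 418 CPM in sedentary mice, which gave a log2 fold change of 0.02 (SE 0.111), so that the sedentary values lay inside the range of the ELE values. Over all 8 libraries it was at 0.03 (SE 0.120), farther from 0 than Basp1.

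A gene is called here, after the rule of the study, at an unadjusted p under 0.05 and a fold above 1.3 in edgeR's quasi-likelihood test. In the SIT comparison 3 of the 9 members, Gap43, Stmn1 and Plppr3, were called lower in ELE, where 2.17% of the 18238 genes tested were. Without sedentary mouse 1 Gap43 was at -0.33 and no longer called. Of the members inside the rule Gap43 was the nearest to its fold, at -0.46, and of those outside it Marcksl1 was, at -0.25. Since this contrast chose the set, nothing is read from the count. No gene of the table reached an adjusted p under 0.05 there, the lowest being 0.905. Over all 8 SIT libraries the same 3 members were called lower, where 5.45% of genes were, and ELE and sedentary groups of 4 did not overlap for 2 members, Stmn1 and Plppr3, as for 4.55% of all genes. With the 3 ELE and 2 sedentary libraries the groups did not overlap for 6 members, as for 22.1% of all genes.

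ELE and sedentary mice of the SIT comparison differed in part in the first part of their mouse numbers (the number without its last field), whose meaning the labels do not give. Among the mice with the only first part found in both groups, NT6 (2 ELE and 2 sedentary mice, ELE mouse 2 included, a subset chosen after seeing the data), Gap43 and Plppr3 were called lower in ELE, where 3.08% of genes were. Their log2 fold changes there were -0.58 (SE 0.156) and -0.86 (SE 0.193), and that of Stmn1 was -0.35 (SE 0.113), short of the fold of 1.3. SIT libraries chose the set, so nothing is read from the calls among the NT6 mice. Among these mice Basp1 was at 0.08 (SE 0.132), Marcks at 0.14 (SE 0.158) and Marcksl1 at 0.19 (SE 0.335), opposite in sign to the SIT comparison, so that 5 of the 9 members were below 0 in place of 8. Among marker lists, 3 of the 4 choroid plexus markers were lower in ELE in the SIT comparison, summing to 128 to 575 CPM in the 3 ELE and 584 to 668 CPM in the 2 sedentary libraries, and 2 of the 3 dentate granule cell markers were higher, summing to 457 to 550 CPM and 371 to 501 CPM. Of the 6 immature neuron markers 1 was lower, with sums of 116 to 191 CPM and 138 to 186 CPM. Also lower in ELE there were 1 of the 2 oligodendrocyte precursor markers (median log2 fold change of the list -0.33), 1 of the 6 inhibitory neuron markers (-0.37) and 1 of the 6 striatal neuron markers (-0.13). Their part in the difference of the members was not tested. In these bulk samples, fewer cells of a kind and less RNA per cell cannot be told apart.

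**Figure D2:**
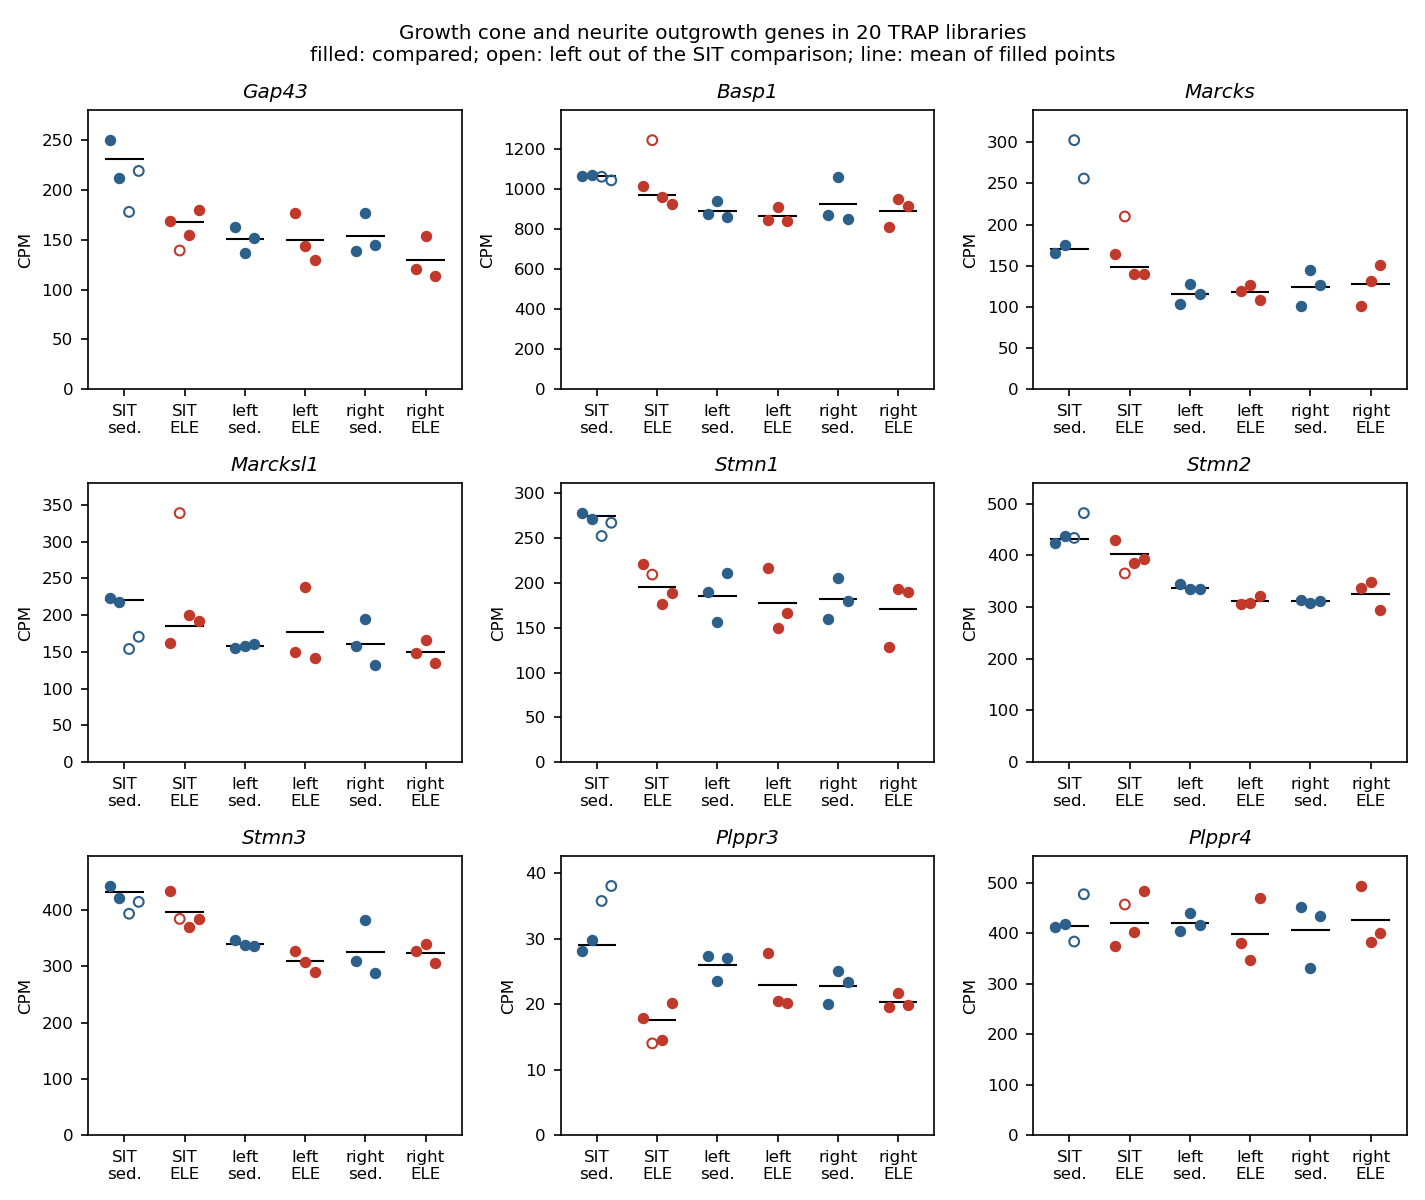
CPM of each member in every library (linear axes from 0, blue sedentary, red ELE, filled points compared, open points the 3 SIT libraries left out, black line the mean of the filled points). In the SIT libraries Stmn1 and Plppr3 separate ELE from sedentary mice with and without the open points, whereas in left and right libraries the colours overlap for most members.

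The left and right libraries came from other mice and took no part in choosing the members, so the effect of ELE could be tested there. In the left hippocampus none of the 9 members was called, where 2.12% of the 17750 genes tested were. Gap43 measured 177, 144 and 129 CPM in the 3 ELE mice and 163, 137 and 152 CPM in the 3 sedentary mice. The groups overlapped throughout, with a log2 fold change of -0.01 (SE 0.122, adjusted p = 0.997, edgeR).

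Plppr3 in the left hippocampus measured 27.9, 20.6 and 20.2 CPM in ELE and 27.3, 23.6 and 27.1 CPM in sedentary mice. ELE mouse 1 was the highest of the 6 and the other ELE mice were the lowest, and the log2 fold change was -0.19 (SE 0.143, adjusted p = 0.960, edgeR). Stmn1 measured 217, 150 and 166 CPM in ELE and 189.5, 157 and 211 CPM in sedentary mice, so that the ELE group held both the highest and the lowest value. For Stmn2 and Stmn3 the left groups did not overlap, as for 10.8% of all genes tested there. Stmn2 was at 306, 309 and 322 CPM in ELE and 344, 334 and 335 CPM in sedentary mice. Stmn3 was at 328, 309 and 291 CPM in ELE and 347, 339 and 336 CPM in sedentary mice. Their differences were small, at log2 fold changes of -0.12 (SE 0.0648) and -0.14 (SE 0.0716), and each gave an exact two-sided permutation p of 0.1, the smallest that 3 against 3 mice allow, and an edgeR adjusted p of 0.960.

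The other left values were smaller than their errors. The log2 fold changes were -0.04 (SE 0.0714) for Basp1, 0.02 (SE 0.0986) for Marcks, 0.15 (SE 0.180) for Marcksl1, -0.07 (SE 0.153) for Stmn1 and -0.08 (SE 0.113) for Plppr4. Marcksl1 was pulled up by ELE mouse 2 at 238 CPM, since the other ELE mice, at 149 and 142 CPM, were below all 3 sedentary mice, at 156, 158.5 and 160.1 CPM.

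In the right hippocampus none of the members was called either, where 2.00% of the 17570 genes tested were, and the groups overlapped for all 9, against 7.69% of genes whose groups did not. Gap43 measured 120.5, 154 and 114 CPM in ELE and 139, 177 and 145 CPM in sedentary mice. ELE mouse 2 lay among the sedentary mice while the other ELE mice lay below them, and the log2 fold change was -0.24 (SE 0.134, adjusted p = 0.9998, edgeR). Without that mouse it was -0.39 and Gap43 would have been called, and without sedentary mouse 2 it was -0.14. Plppr3 measured 19.5, 21.6 and 19.8 CPM in ELE and 19.98, 25.1 and 23.4 CPM in sedentary mice, which gave a log2 fold change of -0.16 (SE 0.126).

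Stmn1 in the right hippocampus measured 128, 193.5 and 190.1 CPM in ELE and 160, 206 and 180.4 CPM in sedentary mice, which gave a log2 fold change of -0.09 (SE 0.157). Stmn2 was on the right at 337, 348 and 294 CPM in ELE and 314, 308 and 312 CPM in sedentary mice, so that ELE held the lowest and both highest values. Basp1, Marcks, Marcksl1, Stmn3 and Plppr4 had log2 fold changes between -0.10 in Marcksl1 and 0.07 in Plppr4.

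Averaged over both hemispheres in the full model (12 libraries, with exercise, hemisphere and their interaction), 0 of the 9 members were called, where 2.31% of 18810 genes were. Gap43 ranged from 114 to 177 CPM in the 6 ELE mice (median 137) and from 137 to 177 CPM in the 6 sedentary mice (median 148.5). The ranges shared their upper end, and the log2 fold change was -0.13 (SE 0.0984, 95% interval -0.34 to 0.09). Plppr3 ranged from 19.5 to 27.9 CPM (median 20.4) in ELE and from 19.98 to 27.3 CPM (median 24.3) in sedentary mice. Its median was lower in ELE but the ranges overlapped, and the log2 fold change was -0.18 (SE 0.0959, 95% interval -0.38 to 0.03, adjusted p = 0.925, edgeR).

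For Plppr3 the exact permutation test within hemisphere gave a two-sided p of 0.095, where 400 arrangements allow 0.005 at least, and this was the lowest of the 9 members. Stmn1 ranged from 128 to 217 CPM in ELE and from 157 to 211 CPM in sedentary mice, which gave a log2 fold change of -0.08 (SE 0.122, 95% interval -0.34 to 0.18). The interval of Stmn2 was the narrowest, from -0.13 to 0.09 around -0.02 (SE 0.0511). A fold of 1.3, which is 0.38 on the log2 scale, lay outside the interval of every member but Plppr3, whose lower bound reached it. The members had a median log2 fold change of -0.05 over both hemispheres, where all genes had -0.0004, and 7 of the 9 values were below 0, as were 50.1% of all genes.

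The difference between hemispheres in the effect of ELE was tested by the interaction, for which none of the members was called, where 2.21% of genes were. The lowest unadjusted p of a member was 0.0913, for Stmn2 (edgeR, adjusted p = 1). Left against right, over ELE and sedentary mice, called none of the members either, where 1.44% of genes were. The largest difference was that of Plppr3, 13.0% higher on the left (log2 fold change 0.18, SE 0.0959, adjusted p = 0.9999, edgeR). In the left, right, averaged, interaction and left against right tests, 0 members reached an unadjusted p under 0.05 in edgeR with all libraries and the filter on low counts, and DESeq2 called 0 members in each.

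**Figure D3:**
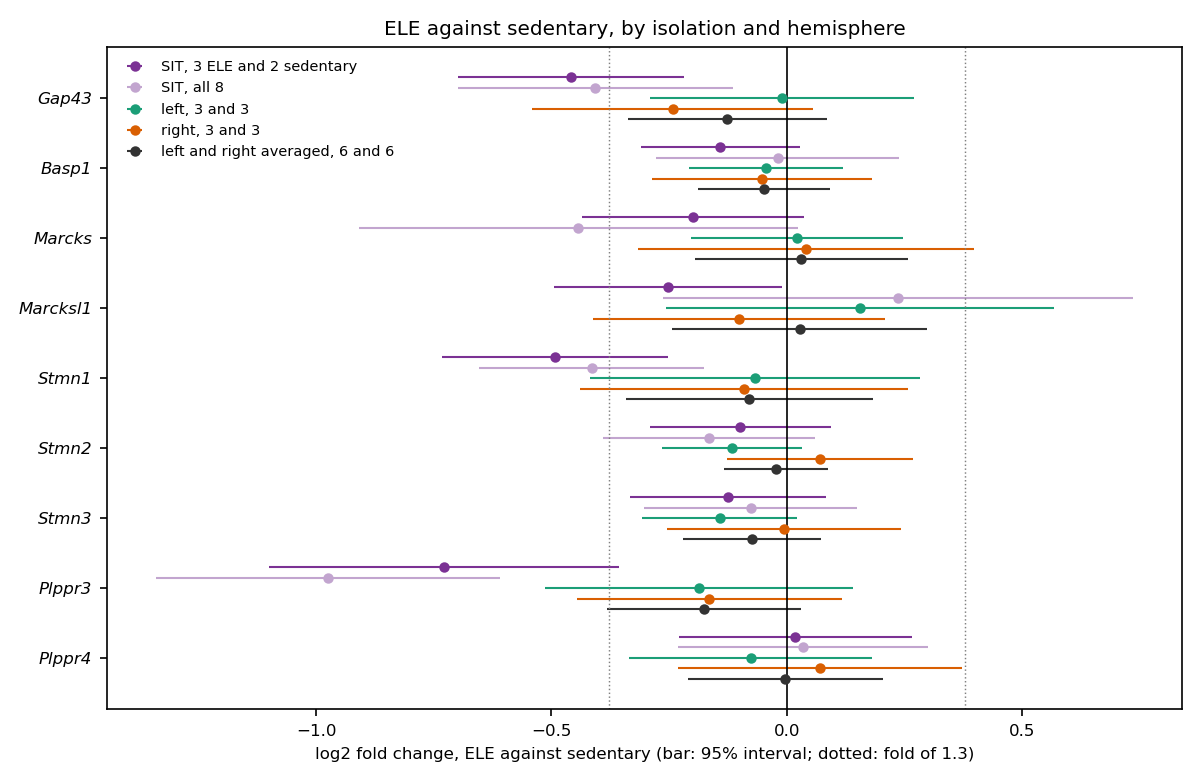
Log2 fold change of ELE against sedentary for each member in the SIT, left, right and averaged comparisons (points the edgeR estimates, bars their 95% intervals, dotted lines a fold of 1.3). The SIT points of Gap43, Stmn1 and Plppr3 lie left of the lower dotted line with all libraries and without the 3 left out, and every left, right and averaged interval includes 0.

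SIT against separate libraries was compared among mice of the same housing, and since the SIT libraries are those on which the set was chosen, these values are a description. In sedentary mice 5 members, Gap43, Marcks, Marcksl1, Stmn1 and Stmn2, were called higher in SIT, where 5.78% of 18911 genes were. The log2 fold changes were 0.60 (SE 0.0997) for Gap43, 0.58 (SE 0.107) for Stmn1, 0.50 (SE 0.116) for Marcks, 0.46 (SE 0.107) for Marcksl1 and 0.41 (SE 0.0674) for Stmn2. Stmn3 fell just short of the fold of 1.3 at 0.37 (SE 0.0926), and Basp1, Plppr3 and Plppr4 were at 0.23 (SE 0.0841), 0.25 (SE 0.117) and 0.01 (SE 0.101). With all 4 SIT sedentary libraries Marcksl1 was at 0.26, under that fold, Plppr3 was at 0.43, above it, and Marcks was at 0.90.

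In ELE mice 0 members were called higher in SIT, where 4.39% of genes were, and with all 4 SIT ELE libraries 2 were, Marcks at 0.42 and Marcksl1 at 0.45. Stmn2 and Stmn3 were short of the fold of 1.3, at 0.33 (SE 0.0727) and 0.32 (SE 0.0739). Gap43 was at 0.26 (SE 0.123), Stmn1 at 0.17 (SE 0.141), Marcks at 0.27 (SE 0.114), Marcksl1 at 0.18 (SE 0.153) and Basp1 at 0.14 (SE 0.0667). Plppr3 was the only member lower in SIT, at -0.31 (SE 0.141), or -0.42 (SE 0.157) without SIT ELE mouse 4, and Plppr4 was at 0.03 (SE 0.117). Whether the isolation effect differed between ELE and sedentary mice was not tested for the members, since that contrast contains the comparison that chose them.

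Library by library, Stmn2 separated the isolations completely. All 8 SIT libraries, between 365 and 482 CPM, were above all 12 separate libraries, between 294 and 348 CPM, as for 1.07% of the 19935 genes. Gap43 was higher in SIT sedentary mice, at 178 to 250.1 CPM, than in the 6 separate sedentary mice, at 137 to 177 CPM, while SIT ELE mice, at 139 to 180.1 CPM, overlapped the 6 separate ELE mice, at 114 to 177 CPM. Plppr3 had the 4 highest values of all 20 libraries in SIT sedentary mice, at 28.2 to 38.1 CPM, and the separate libraries, at 19.5 to 27.9 CPM, lay between them and all but 1 of the SIT ELE mice, at 14 to 20.1 CPM. SIT mice and separate mice shared no first part of their mouse numbers, so that isolation and whatever that part stands for cannot be told apart here. The first parts TG7.4, of SIT mice, and TG7.3, of separate mice, both begin with TG7. SIT used both hippocampi, and the left libraries of Stmn2, at 306 to 344 CPM, and the right ones, at 294 to 348 CPM, each lay below all SIT libraries, with a left against right log2 fold change of 0.02 (SE 0.0511). Whether taking both hippocampi together bears on the level of Stmn2 was not tested. The excitatory neuron markers summed to less in every SIT than in every separate library, as given above, with 1 of the 6 called lower in each housing group. The 6 astrocyte markers moved with the isolation, with 4 of them lower in SIT in sedentary and 3 in ELE mice, and all 6 inhibitory neuron markers were higher in SIT in sedentary mice. Of the 6 immature neuron markers 3 were higher in SIT in sedentary and 1 in ELE mice, with median log2 fold changes of the list of 0.25 and 0.34. Of the 6 oligodendrocyte markers 2 were higher in sedentary and 1 in ELE mice, and both oligodendrocyte precursor markers were lower in SIT in ELE mice. In sedentary mice 1 of the 6 microglia and 1 of the 6 striatal neuron markers were higher in SIT, and 1 of the 4 endothelium markers was lower. In ELE mice 1 of the 3 dentate granule cell markers was higher and 1 of the 6 striatal neuron markers lower. Their part was not tested.

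**Figure D4:**
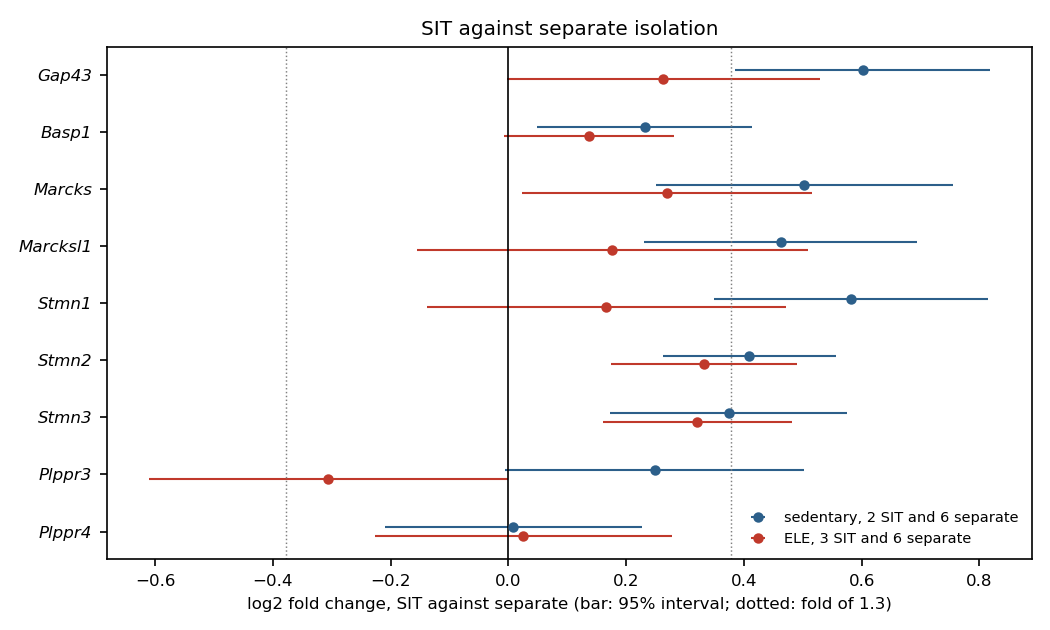
Log2 fold change of SIT against separate libraries for each member, in sedentary mice (blue) and ELE mice (red), with 95% intervals and dotted lines at a fold of 1.3. Stmn2 and Stmn3 lie between 0.32 and 0.41 in both colours. Gaps between blue and red contain the SIT comparison of ELE with sedentary mice that chose the members, and nothing is read from them.

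Correlations between the members across mice were computed for all 36 pairs, and none had an adjusted permutation p under 0.05 for Pearson's r. Over the 12 separate libraries, Gap43 and Plppr3 had Pearson's r of 0.81 and Spearman's rho of 0.85 in log2 CPM, with adjusted permutation p-values of 0.0551 and 0.0306 over the 36 pairs, the libraries sharing the normalization. After removing the group means r was 0.85, and it was 0.84 over the 6 left and 0.86 over the 6 right libraries. Without the 2 libraries farthest from the median of Gap43 it was 0.74, and 0.216% of all genes had a higher r with Gap43 than Plppr3 had. Stmn1 had r of 0.65 with Gap43 and 0.71 with Plppr3.

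Basp1 and Marcks had r of 0.72 and rho of 0.71, with adjusted permutation p-values of 0.0799 and 0.154. Of the 8 correlations of Plppr4, 7 were below 0, from -0.36 with Plppr3 to -0.72 with Basp1. Stmn2, the least variable member, had r between -0.48 with Marcks and 0.34 with Plppr4.

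**Figure D5:**
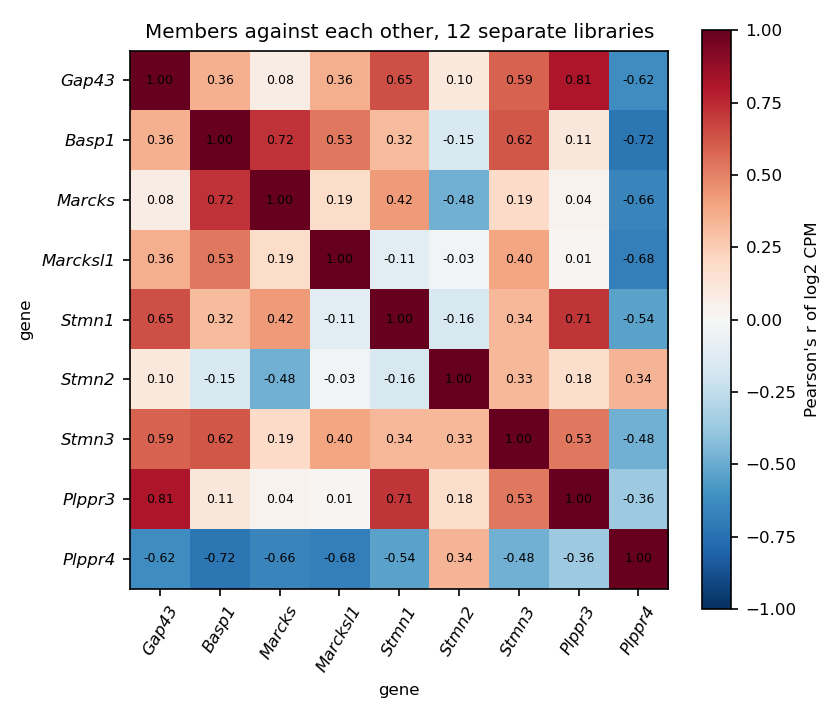
Pearson's r of log2 CPM between members over the 12 separate libraries (colour from -1 in blue to 1 in red, r written in each cell). Gap43, Stmn1 and Plppr3 form a red block, and the row of Plppr4 is blue for all other members except Stmn2.

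Over all 20 libraries, the genes whose log2 CPM was most like that of Gap43, among 19934 genes, were Ak1, which makes the adenylate kinase of the cytosol (r = 0.895), Fxyd6, a regulator of the sodium pump (r = 0.894), and Pgrmc1, a membrane protein that binds haem (r = 0.882). Fxyd6 was at 118 to 128 CPM in SIT sedentary, 68.6 to 107 CPM in SIT ELE and 58.5 to 108 CPM in separate libraries. The genes most like Plppr3 were Mir124-2hg, a host gene of a neuronal microRNA (r = 0.919), the integrin gene Itga3 (r = 0.857) and the interferon gamma receptor gene Ifngr1 (r = 0.857). Mir124-2hg was at 8.96 to 18.7 CPM in SIT sedentary, 4.31 to 6.96 CPM in SIT ELE and 6.09 to 9.48 CPM in separate libraries, the same order as Plppr3. These likenesses include the SIT libraries that chose the members and are descriptions.

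Stmn4, the remaining stathmin, and Plppr1, Plppr2 and Plppr5 were tested in every comparison of ELE with sedentary mice and none was called. Over both hemispheres their log2 fold changes were 0.02 (SE 0.0738) for Stmn4, -0.29 (SE 0.170) for Plppr1, 0.06 (SE 0.0759) for Plppr2 and 0.05 (SE 0.0776) for Plppr5. In the SIT comparison they were -0.12 (SE 0.104), 0.05 (SE 0.157), 0.02 (SE 0.113) and 0.17 (SE 0.112) in the same order. With all 8 SIT libraries Stmn4 was at 0.15 (SE 0.154), Plppr1 at -0.17 (SE 0.291), Plppr2 at 0.19 (SE 0.138) and Plppr5 at -0.03 (SE 0.154). Among the NT6 mice they were at 0.21 (SE 0.178), -0.54 (SE 0.475), 0.19 (SE 0.193) and 0.31 (SE 0.137) in the same order. Plppr2 was the most abundant of that family in the separate libraries, at 206 RPKM ± 18.6 (SD, n = 12), and Plppr1 the least, at 2.18 RPKM ± 0.535 (SD, n = 12). Stmn4 was called higher in SIT than in separate libraries of sedentary mice, at 0.40 (SE 0.0734, adjusted p = 0.00455, edgeR), as Stmn1 and Stmn2 were. In ELE mice Stmn4 was at 0.26 (SE 0.0968) and was not called.

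A wider list of 81 growth cone genes, by role the 4 relatives just named, calmodulin-binding IQ proteins, the kinases, phosphatase and calmodulin genes that act on the members, genes of lysophosphatidic acid, collapsin response mediators and microtubule proteins, actin and membrane regulators, adhesion molecules, guidance cues and receptors, outgrowth inhibitors and regeneration factors, was tested whole in each comparison. In the left hippocampus 2 rose and 0 fell, where 2.12% of all genes were called in either direction. In the right 0 rose and 1 fell, where 2.00% were called, and over both hemispheres 1 rose and 0 fell, where 2.31% were. The medians of the list were -0.01, 0.04 and 0.03 on the log2 scale, where the medians of all genes were 0.0035, -0.0049 and -0.0004. None of the listed genes was called for the interaction or for left against right. In the SIT comparison 0 were called higher and 1, Enpp2, lower, where 3.73% of all genes were called. With all 8 SIT libraries 5 were called higher and 7 lower, where 7.84% of all genes were, and among the NT6 mice 4 were higher and 3 lower, where 6.74% were.

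The genes called in the separate libraries were Atf3, Dclk1 and Enpp2. Atf3, a transcription factor induced by axon injury, was at 0.489, 1.26 and 4.12 CPM in left ELE from lowest to highest and at 0.312 to 0.370 CPM in left sedentary mice, which gave a log2 fold change of 2.52 (SE 0.721, adjusted p = 0.960, edgeR). Over both hemispheres it was at 1.62 (SE 0.480, adjusted p = 0.925, edgeR), with ELE mice from 0.489 to 4.12 CPM and sedentary mice from 0.312 to 1.80 CPM, so that the groups overlapped at a low level. Dclk1, a microtubule-binding kinase, rose in the left hippocampus by 0.41 (SE 0.173, adjusted p = 0.960, edgeR), from 586 to 617 CPM in sedentary to 660 to 1064 CPM in ELE mice, with the highest value far above the median of 668. Enpp2, the enzyme that makes lysophosphatidic acid and a gene of the choroid plexus, fell in the right hippocampus by 1.92 on the log2 scale (SE 0.709, adjusted p = 1, edgeR). It was at 44.5 to 70.5 CPM in ELE and at 62.3, 66.4 and 548 CPM in sedentary mice, so that 1 sedentary library made the difference. The 4 choroid plexus markers were all lower in ELE in that comparison, and their part was not tested.

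Between isolations the wider list moved in both directions. In sedentary mice 12 genes were higher and 6 lower in SIT, where 15.9% of all genes were called in either direction, and in ELE mice 8 were higher and 7 lower, where 13.2% were. Some of these are named here after their values were seen. Dpysl2, a collapsin response mediator that carries tubulin to microtubule ends, was higher in SIT in sedentary mice by 0.80 (SE 0.0841, adjusted p = 0.000291, edgeR) and in ELE mice by 0.88 (SE 0.0926, adjusted p = 0.000296, edgeR). Calm2, which encodes calmodulin, was higher by 0.48 (SE 0.0620) and 0.45 (SE 0.0620) in the same order, and the actin-severing Cfl1 by 0.54 (SE 0.0811) and 0.51 (SE 0.0763). Plxna1, a semaphorin receptor, fell by 0.63 and 0.47 on the log2 scale (SE 0.102 and 0.0897). These genes were called in both housing groups, whose SIT and separate libraries are different mice.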

How the data were processed

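The data are TRAP-seq libraries of 20 mice. Per the submitters' processing notes and the methods of the study, the authors checked reads with FastQC 0.11.9, aligned them to GRCm38 with STAR 2.7.3a, removed duplicates with Picard 1.87, summed the pairs falling on a gene's exons by strand, and deposited these counts as whole numbers, not normalized. Groups are those of the sample labels, and the columns, named by mouse number, were assigned to them through the study's list of animals, which gives housing, isolation and hemisphere. Mice are numbered here within each group in the order of those mouse numbers, which could not be linked to the replicate numbers of the labels. The 3 SIT libraries left out were identified because only 1 of 24 subsets of 3 ELE and 2 sedentary libraries gave the mean normalized counts that the study lists, for 633 of 633 genes. No 2 libraries of a group were near-identical (lowest chi-square per gene 20.2 among 24 pairs).

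The members and gene lists were chosen with earlier results of these data known. All genes were fitted with edgeR 4.0.16 in R 4.3.3 (TMM factors, filterByExpr, quasi-likelihood test on the groups compared), p-values were adjusted by Benjamini-Hochberg over all genes tested, and a standard error was the log2 fold change over the square root of F. CPM used TMM factors over the 20 libraries. Exact permutation tests used log2 CPM with a pseudocount of 0.5. Alternatives were DESeq2 1.42.0, median-of-ratios factors, no filter on low counts, the fold threshold of the study's methods, counts without mitochondrial genes, an additive model, a replicate block, other sets of libraries, and leaving out each library. The fits were tested on simulated data. Named genes were the members, their relatives, genes of the wider list called in the left, right or averaged comparison, and the 3 genes most like Gap43 and Plppr3. Genes of the wider list named between isolations were chosen after their values were seen. A table of wild-type hippocampus, with 24 columns that matched no single sample's labels, was not used, so the comparisons that need it were not run.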

Additional observations from a re-analysis of the deposited data

How the results depend on the processing

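Under DESeq2, median-of-ratios factors, no filter on low counts, the fold threshold of the study's methods and counts without mitochondrial genes, the number of members called was the same as reported in all 8 comparisons. The choice of SIT libraries mattered more. Between SIT and separate sedentary mice 5 members were called, 5 with all SIT libraries, 5 to 6 leaving out a library, and, chosen after seeing the data, 4 against left libraries alone and 6 against right ones. Marcksl1 ran from 0.258 to 0.5257 and Marcks from 0.4497 to 0.9034. With all SIT libraries, 2 members in place of 0 were called between SIT and separate ELE mice, Marcks at 0.42 (SE 0.134) and Marcksl1 at 0.45 (SE 0.203), and leaving out each library in turn gave 0 to 1, with 1 (Plppr3) without SIT ELE mouse 4. In the SIT comparison of ELE with sedentary mice, leaving out a library gave 2 to 3 members called, with Gap43 lost without sedentary mouse 1 at -0.33 (SE 0.147), and Plppr3 between -0.84 and -0.60. In the right hippocampus leaving out a library gave 0 to 1 members called, the 1 being Gap43 without ELE mouse 2.

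Several uncalled log2 fold changes changed sign when 1 library was left out. On the left the ranges were -0.1506 to 0.0881 for Gap43, -0.0532 to 0.0951 for Marcks, -0.1243 to 0.2915 for Marcksl1, -0.2393 to 0.0398 for Stmn1 and -0.2112 to 0.014 for Plppr4. On the right they were -0.1137 to 0.046 for Basp1, -0.0998 to 0.181 for Marcks, -0.2311 to 0.0457 for Marcksl1, -0.1925 to 0.0772 for Stmn1, -0.0924 to 0.1147 for Stmn3 and -0.0634 to 0.156 for Plppr4. Over both hemispheres they were -0.0782 to 0.0038 for Basp1, -0.0385 to 0.1003 for Marcks, -0.1142 to 0.1032 for Marcksl1, -0.164 to 0.0039 for Stmn1, -0.0503 to 0.0093 for Stmn2 and -0.0717 to 0.0411 for Plppr4. In the SIT comparison Plppr4 ran from -0.0955 to 0.0916. Between isolations it ran from -0.0476 to 0.0366 in sedentary and from -0.0845 to 0.0992 in ELE mice. Some others kept their sign but moved by over 1.5 times, among them Gap43 and Plppr3. Plppr3 ran from -0.3567, without ELE mouse 1, to -0.1034 on the left and from -0.2514 to -0.0995 on the right. Gap43 ran from -0.3865 to -0.1351 on the right, and over both hemispheres from -0.2002 to -0.0697. An unadjusted p under 0.05 in edgeR was reached, short of the fold of 1.3, by right Gap43 without the filter and under the block below, by left Plppr3, left Stmn3 and averaged Plppr3 without left ELE mouse 1, by left Plppr4 without left ELE mouse 3, and by averaged Plppr3 without right sedentary mouse 1. The cause was not tested.

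The mouse numbers share 3 first parts across the 4 separate groups, and a replicate block by them called 0 members on the left, on the right and over both hemispheres and turned Stmn3 on the right from -0.0069 to 0.0023. It changed no other direction and no call. Libraries with the same first part did not deviate together throughout, with r between -0.10 and 0.56 (median 0.03) over 18 pairs, against a median of 0.00 over 36 other pairs. The block is a shared number only.

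The share of all genes called moved by more than 1.5 times in places. It was 3.73% in the SIT comparison but 7.84% with all 8 libraries, 6.74% among the NT6 mice and 1.83% to 6.3% leaving out a library, and 1.23% to 5.34% on the left, 1.73% to 3.61% on the right and 1.9% to 3.8% over both hemispheres leaving out a library. Without a filter on low counts it was 3.73% over both hemispheres, 3.56% for the interaction and 2.69% for left against right. Groups of 2 to 4 mice and counts from bulk tissue limit what could be detected. P-values measure only the spread between these mice.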
